A study of Mus musculus with 24 samples.

Results

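The miR-376 names are 4 of the 650 microRNA (miRNA) names on the array used here: mmu-miR-376a, mmu-miR-376b, mmu-miR-376b* and mmu-miR-376c, written below without the species prefix. They were taken by name, as every array row called by one of these 4 names, and followed over 5 ages of the postnatal mouse lung. Each array measured total RNA of whole lung from C57BL/6 mice described as healthy. There were 5 arrays each at day 1, day 4, day 7 and day 14 after birth and 4 arrays at 6 weeks, written here as day 42. No allele, treatment or other agent is named for any group. The title of the series speaks of fetal lungs, whereas every sample label gives an age after birth, and those ages were used. The labels call the samples biological replicates without saying how many animals each RNA came from.

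MicroRNAs are short RNAs that guide silencing proteins to messages carrying a match to their seed, a stretch near the 5′ end. The miR-376 hairpins lie in the imprinted Dlk1-Dio3 region, where a large cluster of miRNAs is made from long transcripts of the maternal chromosome, and this cluster is known for high levels in the embryo, the placenta and the brain. The miR-376 precursors are also textbook substrates of A-to-I editing, which can change a base of the seed. For the miR-376 hairpins, a plain name on the array stands for the arm cut from the 3′ side of the hairpin (3p). The star of the older naming used there stands, for these hairpins, for the opposite arm (5p).

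RefSeq entries on build GRCm38.p6 were matched to 3 of the 4 names, and all coordinates here are of that build, on the plus strand of chromosome 12. The mature sequences are shown because the names differ from each other by so few bases, with the seed (bases 2 to 8) in capitals. The last sequence is the whole Mir376c hairpin, where capitals mark instead the 3 runs of 8 or more bases found in all 3 miR-376 hairpins.
miR-376a (miR-376a-3p, chr12:109723824-109723844): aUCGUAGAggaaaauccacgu
miR-376b (miR-376b-3p, chr12:109723508-109723528): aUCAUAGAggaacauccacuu
miR-376b* (miR-376b-5p, chr12:109723471-109723492): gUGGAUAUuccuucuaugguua
miR-376c* (miR-376c-5p, chr12:109722733-109722754): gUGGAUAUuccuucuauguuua
miR-376a* (miR-376a-5p, chr12:109723786-109723807): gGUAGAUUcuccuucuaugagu
Mir376c hairpin (chr12:109722718-109722803): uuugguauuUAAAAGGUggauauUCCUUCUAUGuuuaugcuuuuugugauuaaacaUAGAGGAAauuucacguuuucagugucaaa

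The 3p arms of miR-376a and miR-376b were identical at 18 of 21 positions, with the substitutions G4A, A13C and G20U counted from the 5′ end of miR-376a. The first of these lies in the seed, so the names have different seeds, and no other mature entry of the RefSeq table carries either one. The 5p arms of miR-376b and miR-376c were identical at 21 of 22 positions (G19U) and share the seed UGGAUAU. The 3 hairpins lie within 1131 bases, in the order Mir376c, Mir376b and Mir376a along the strand, with Mir654 between the first and the second. Mir667 lies 2620 bases before Mir376c, and Mir300 lies 464 bases after Mir376a. Whether a probe for one of these names also binds another was not tested.

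The arrays carried 24 values per name and no saturated miRNA spot. A value is a scaled signal, in which the probes of a name are summed and then expressed relative to the 75th percentile, on that array, of the 228 names that all arrays detected. Signals under a floor of 7.46 intensity units were set to it before log2 was taken. A name is called detected where the deposited detection flag of that array says so. The arrays differed in brightness, taken as that 75th percentile before scaling: it ran from 923 to 2183 at day 1, 1190 to 2546 at day 4, 2171 to 2696 at day 7, 2302 to 4954 at day 14 and 1727 to 4151 at day 42. The arrays sat on 3 slides of 8, each with all 5 ages. In whole tissue, fewer cells of a type and less RNA per cell cannot be told apart. The marker miRNAs of endothelium, epithelium, smooth muscle, fibroblasts, leukocytes and red blood cells were all detected. Of the 5 names of the brain and nerve list, 4 were detected on some array and miR-124 on none.

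None of the 4 miR-376 names differed past the test within the first week, and all 4 fell between day 7 and day 14 and again to day 42. In the scaling used here, miR-376a fell 19.2-fold between day 1 and day 42, miR-376c 11.5-fold and miR-376b 9.32-fold. In the same scaling miR-376b* fell by at least 5.29-fold to below detection. Other processing moved the sizes of these falls, as given in the last section. Every tested comparison below is from a limma model over 322 miRNAs, with Benjamini-Hochberg adjusted p-values.

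**Figure D1:**
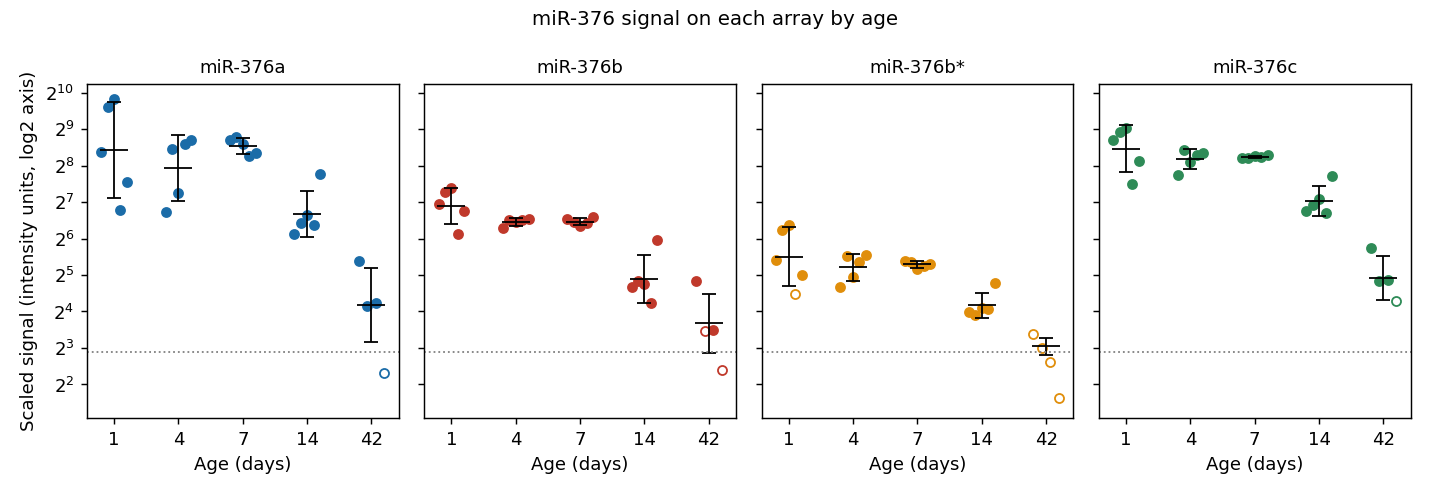
Scaled signal (intensity units, log2 axis) of the 4 miR-376 names on each array against age in days; filled points were detected, open points were not, bars give the mean and 1 SD of the log2 values, and the dotted line is the floor of 7.46, to which lower points were set before averaging. The arrays of day 7 lie close together, those of day 14 lie below all of day 7, and miR-376b* was detected on 0 of the 4 arrays of day 42.

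miR-376a, the 3p arm of the last hairpin of the 3, had scaled signals of 333, 780, 909, 110 and 186 on the 5 arrays of day 1. They were 105, 352, 151, 388 and 414 at day 4 and 418, 441, 386, 309 and 324 at day 7. The arrays of day 1 spanned the widest range, and those of day 4 and day 7 lay inside or near it. At day 14 the signals were 69.6, 86.2, 101, 82.8 and 216, all below every array of day 7. At day 42 they were 41.6, 17.8, 18.9 and 5.02, all below every array of day 14. Replicate 4 of day 42 was not detected and entered the mean at the floor, so 3 of 4 arrays measured miR-376a at that age.

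As mean log2 signal, miR-376a stood at 8.43 ± 1.31 (SD, n = 5) at day 1, 7.94 ± 0.90 (n = 5) at day 4 and 8.54 ± 0.23 (n = 5) at day 7. It then stood at 6.67 ± 0.64 (n = 5) at day 14 and 4.17 ± 1.01 (n = 4) at day 42. The fall from day 7 to day 14 was -1.87 ± 0.53 on the log2 scale (SE, adjusted p = 0.00765), or 3.66-fold. From day 14 to day 42 it fell by a further 5.66-fold (log2 -2.50 ± 0.56, adjusted p = 0.00115). Over the whole period, the difference of day 42 from day 1 was -4.26 ± 0.56 (adjusted p = 5.85e-07) and the arrays of these ages did not overlap.

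miR-376b, the 3p arm of the middle hairpin, gave 124, 154, 167, 69.4 and 107 at day 1. The arrays of the next ages lay closer together, at 78.1, 90.9, 86.9, 90.2 and 93.0 at day 4 and 92.5, 87.3, 80.4, 86.1 and 95.8 at day 7. Day 14 gave 25.5, 28.6, 26.9, 18.6 and 62.4, all below day 7. Day 42 gave 28.5, 11.1, 11.2 and 5.22, of which replicates 1 and 3 were detected. Replicate 1 of day 42 lay among the arrays of day 14, so these ages overlapped, whereas day 42 and day 1 did not.

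The mean log2 signals of miR-376b were 6.89 ± 0.50 (SD, n = 5), 6.45 ± 0.10 (n = 5), 6.46 ± 0.10 (n = 5), 4.89 ± 0.65 (n = 5) and 3.67 ± 0.82 (n = 4) in order of age. It fell 2.98-fold from day 7 to day 14 (log2 -1.57 ± 0.30, adjusted p = 0.000225). From day 14 to day 42 the fall was 2.32-fold (log2 -1.22 ± 0.32, adjusted p = 0.00473). Day 42 against day 1 gave -3.22 ± 0.32 (adjusted p = 6.41e-09).

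miR-376b*, the 5p arm of the same hairpin, gave 42.5, 75.8, 82.2, 22.3 and 32.1 at day 1, where replicate 4, with the 22.3, was not detected. It gave 25.6, 46.0, 30.7, 41.1 and 46.4 at day 4 and 41.7, 40.8, 35.8, 37.8 and 39.6 at day 7. The day 7 arrays again lay within the range of day 1. At day 14 the signals were 15.9, 15, 17.1, 16.9 and 27.4, all below day 7. At day 42 they were 10.5, 8.01, 6.09 and 3.11; none of these 4 arrays detected the name, and 2 of them lay under the floor.

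The fall of miR-376b* from day 7 to day 14 was 2.17-fold (log2 -1.12 ± 0.27, adjusted p = 0.00249). With no array of day 42 detecting it, a fold against that age is a bound. It was computed on each array against the highest of the floor, the array's lowest detected signal and the name's own signal. By that bound miR-376b* was at least 2.10-fold lower at day 42 than at day 14 (adjusted p of the fit 0.00425) and at least 5.29-fold lower than at day 1 (adjusted p = 1.15e-07). Both bounds hold for the scaling used here, and the day 1 mean includes replicate 4, which was not detected. The mean log2 signals were 5.50 ± 0.80 (SD, n = 5) at day 1 and 4.17 ± 0.35 (n = 5) at day 14. That of day 42, 3.05 ± 0.24 (n = 4), comes from arrays that did not detect the name, 2 of them set to the floor.

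miR-376c, from the first hairpin of the 3, gave 420, 486, 524, 181 and 278 at day 1 and 213, 343, 273, 314 and 324 at day 4. At day 7 the arrays agreed most closely, at 298, 297, 307, 301 and 312. The signals then were 109, 120, 135, 104 and 210 at day 14, all below day 7. They were 53.3, 28.5, 29.0 and 19.5 at day 42, all below day 14, with replicate 4 not detected.

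In mean log2 signal, miR-376c went from 8.46 ± 0.64 (SD, n = 5) at day 1 through 8.18 ± 0.27 (n = 5) and 8.24 ± 0.03 (n = 5) to 7.03 ± 0.41 (n = 5) and 4.93 ± 0.60 (n = 4). It fell 2.31-fold from day 7 to day 14 (log2 -1.21 ± 0.27, adjusted p = 0.00100) and 4.30-fold from day 14 to day 42 (log2 -2.10 ± 0.28, adjusted p = 4.70e-06). Day 42 against day 1 gave -3.53 ± 0.28 (adjusted p = 1.66e-10), and these ages did not overlap.

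In the first week, none of the 4 names passed the test. Day 4 against day 1 called 0 of 4, where 1.55% of the 322 tested miRNAs were called, with log2 differences from -0.48 to -0.28 and adjusted p from 0.503 to 0.681. Day 7 against day 4 called 0 of 4 (0.311% of all tested), with miR-376a at 0.60 and the other names between 0.01 and 0.08. Day 7 against day 1 called 0 of 4 (15.8% of all tested), with differences of 0.11 for miR-376a, -0.43 for miR-376b, -0.21 for miR-376b* and -0.21 for miR-376c. At an unadjusted p under 0.05 the count was also 0 in each of these comparisons. Without the 5 dimmest arrays, which leaves 2 arrays at day 1, miR-376b* was called lower at day 7 than at day 1 (log2 -1.01, adjusted p = 0.00279). The first-week differences moved with the processing. With array brightness as a covariate, day 7 against day 1 gave -0.85, -0.61, -0.63 and -0.58 for miR-376a, miR-376b, miR-376b* and miR-376c. Day 4 against day 1 then ran from -0.97 to -0.47. With no scaling, day 7 against day 1 gave 0.83, 0.29, 0.51 and 0.51. None was called in these settings.

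In the second step, day 14 against day 7, 4 of 4 names were called lower, where 23.9% of all tested miRNAs were called lower. Their ages did not overlap for 4 of 4, against 37.0% of all tested. The median difference of the 4 names was -1.39 on the log2 scale, beside -0.05 over all tested miRNAs. In day 42 against day 14, 4 of 4 were again called lower (28.0% of all tested), with a median of -1.66 beside -0.17 over all tested, and the ages did not overlap for 3 of 4 (29.8% of all tested). In day 14 against day 1, 4 of 4 were called lower (32.6%), with differences of -1.76 for miR-376a, -2.0 for miR-376b, -1.33 for miR-376b* and -1.43 for miR-376c. Only miR-376b did not overlap between those ages, so 1 of 4 did not, against 35.4% of all tested. In day 42 against day 1, 4 of 4 were called lower (42.9%) and did not overlap (39.8%). The F-test over the 5 ages called 4 of 4, where it called 65.5% of all tested.

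**Figure D2:**
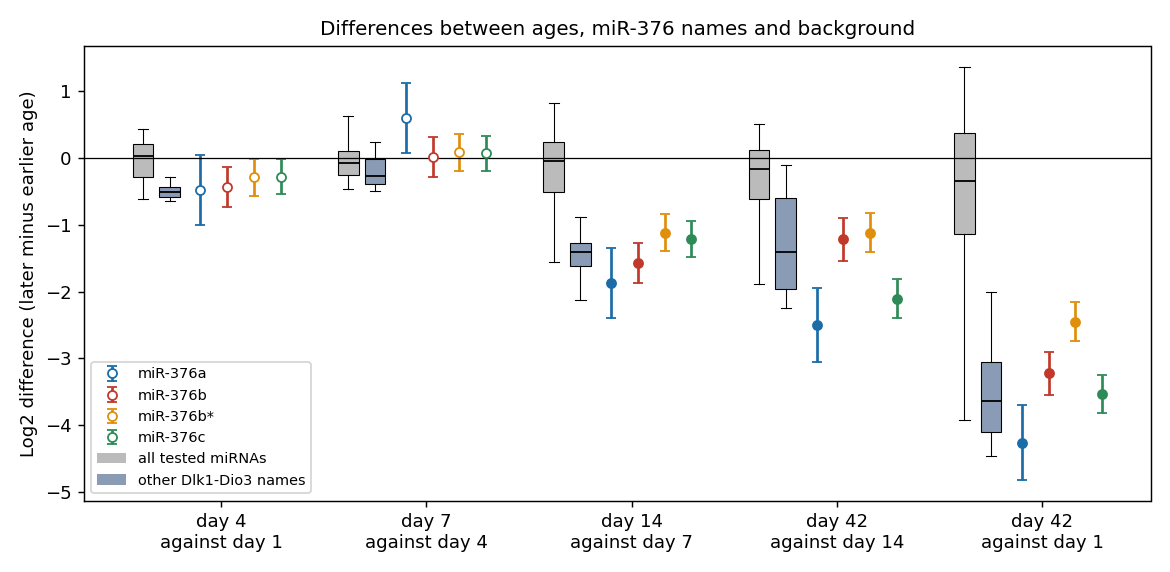
Log2 difference of the later minus the earlier age for 5 comparisons; points with bars are the miR-376 names with their SE (filled where the adjusted p is under 0.05), and boxes give the quartiles, with whiskers from the 5th to the 95th percentile, of all 322 tested miRNAs (light) and of the 38 other tested names of the Dlk1-Dio3 region (dark). The miR-376 points lie between -0.48 and 0.60 in the 2 steps of the first week, none of them filled, and at or below -1.12 in the next 2 steps.

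Set against the rest of their cluster, the miR-376 names fell beside most of the other 38 tested names of the Dlk1-Dio3 region. The array carried 70 other names of the region, of which these 38 met the detection rule of the test. Of those 38, 36 were called lower at day 14 against day 7 with a median of -1.41, 28 at day 42 against day 14 with a median of -1.41, and 37 at day 42 against day 1 with a median of -3.64. At day 42 against day 14, 0 of the 38 had a more negative difference than miR-376a, and 4 of 38 had one more negative than miR-376c. At day 42 against day 1, by contrast, 7 of 38 lay below miR-376a, 20 below miR-376c, 27 below miR-376b and 33 below miR-376b*. Those differences stop at the floor for names that were no longer detected. In day 7 against day 1, 21 of the 38 were called lower (median -0.68), where 34 of all 322 tested miRNAs were. Of the 4 miR-376 names, 0 were called lower (median -0.21). That count of 21 was 6 without the 5 dimmest arrays, and the difference between the lists was not tested.

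The opposite arms of the other hairpins were measured by probes of their own. miR-376a* was detected on 4 of 5 arrays at day 1, 4 of 5 at day 4, 5 of 5 at day 7, 4 of 5 at day 14 and 0 of 4 at day 42. Its scaled signal ran from 29.2 to 85.5 at day 1, 36.8 to 46.6 at day 7 and 11.1 to 18.8 at day 14, so the arrays of day 14 lay below those of day 7. It fell 2.78-fold between these ages (log2 -1.48 ± 0.20, adjusted p = 4.59e-06) and was at least 7.00-fold lower at day 42 than at day 1 (adjusted p = 4.52e-11). miR-376c*, whose sequence differs from that of miR-376b* at the 1 position given above, was detected on 0 of 24 arrays. Its highest scaled signal on any array was 7.16, under the floor, so at these arrays no level could be read for it.

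**Figure D3:**
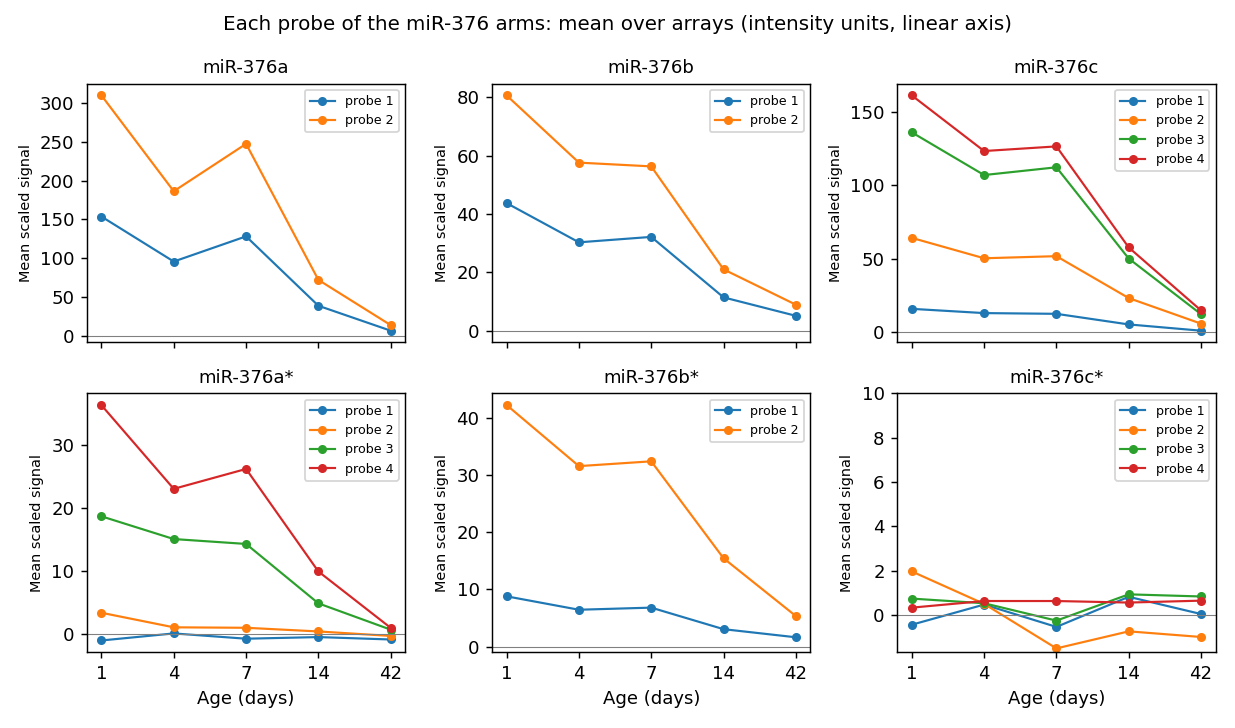
Mean scaled signal (intensity units, linear axis, a separate range in each panel) of every probe of the 6 miR-376 arms against age in days, 1 line per probe. The probes of miR-376a, miR-376b, miR-376b* and miR-376c are each highest at day 1 and lowest at day 42, and the 4 probes of miR-376c* stay between -1.51 and 1.96 at all ages.

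The probes of a name were also read singly. For the 2 probes each of miR-376a, miR-376b and miR-376b* and the 4 of miR-376c, every array of day 1 lay above every array of day 42 and every array of day 7 above every array of day 14. The ratio of mean signal at day 1 to day 42 was 22.5 and 22.1 for the probes of miR-376a and 8.57 and 9.05 for those of miR-376b. It ran from 11.1 to 11.7 over the 3 brighter probes of miR-376c. The dimmest probe of miR-376c had a mean of 0.66 at day 42 and gives no ratio, and none is given for miR-376b*, which was not detected at day 42. The day 42 means include the arrays that did not detect the name.

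The nearest names on the chromosome were read on the same arrays. miR-300, from the next hairpin after Mir376a, was detected on 4 of 4 arrays of day 42 and fell 3.22-fold from day 7 to day 14 (adjusted p = 5.08e-05) and 3.63-fold from day 14 to day 42 (adjusted p = 3.66e-05). Its difference at day 42 from day 1 was -3.94 ± 0.30, or 15.3-fold, between those of miR-376a and miR-376c. miR-495 was detected on 3 of 4 arrays of day 42 and differed from day 1 by -3.29 ± 0.23. miR-300*, miR-381 and miR-543 were detected on 0 of 4 arrays of day 42. miR-381 and miR-543, detected on 5 of 5 arrays of day 1, were lower than at day 1 by at least 9.57-fold and 5.68-fold. miR-300* was detected on 2 of 5 arrays of day 1, so its value of 5.99-fold rests in part on day 1 signals that were not detected. From day 7 to day 14 miR-381, detected on every array of both ages, fell 2.99-fold. miR-543 was detected on 0 of 5 arrays of day 14 and was at least 2.70-fold lower there, and miR-300*, detected on 1 of 5, fell 2.16-fold in the fit. miR-654-3p, miR-654-5p and miR-667, whose hairpins flank Mir376c, were detected on 0 of 24 arrays and were not tested.

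Whether the miR-376 names changed unequally was tested on the difference of 2 names within each array, which a single scaling factor per array cannot move. The tests were run for miR-376a, miR-376b and miR-376c, which were detected on all arrays concerned, at day 7 and day 14 against day 1. No pair was detected on all arrays of day 42, and day 4 was not tested. Across the 6 exact permutation tests (two-sided, 5 arrays against 5, smallest possible p 0.00794) none passed after Benjamini-Hochberg adjustment. The log2 difference of miR-376b from miR-376c was -1.56 ± 0.17 (SD, n = 5) at day 1, -1.78 ± 0.10 (n = 5) at day 7 and -2.14 ± 0.28 (n = 5) at day 14. The change to day 14 was -0.58 (exact p = 0.0159, adjusted p = 0.0952), with 4 of 5 arrays of day 14 below all of day 1. Without replicate 1 of day 1, the tests of this pair at day 7 and at day 14 passed, each at an exact adjusted p of 0.0476. The other 4 tests had exact adjusted p-values of 0.429 or more. Other processing did move the differences. Over 10 alternative settings, the change of miR-376b from miR-376c at day 14 ran from -0.60 to -0.07, and none of the 6 tests passed. At day 1 the log2 difference of miR-376a from miR-376b was 0.66 on the dimmest array and 2.44 on the brightest.

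At day 1 the signals of the names followed the brightness of the array. Day 1 was the age of the widest log2 spread for miR-376a, miR-376b* and miR-376c, and day 42 for miR-376b. Taken from the dimmest to the brightest array of day 1, the signal rose at every step for 4 of 4 names, as it did for 58 of the 322 tested miRNAs (18%). The brightest array of day 1 exceeded the dimmest by 3.05 on the log2 scale for miR-376a, by 1.88 for miR-376b*, by 1.53 for miR-376c and by 1.27 for miR-376b. At day 7, where brightness hardly differed, the same difference was at most 0.44. Over the 4 names it ran from 0.21 to 1.88 at day 4 and from 0.10 to 1.25 at day 42, whose dimmest array detected none of them. At day 14, where brightness ran from 2302 to 4954, it ran from -0.09 to 0.23. At no age but day 1 did the signal of a name rise at every step. With brightness as a covariate the differences of day 42 from day 1 were -5.60 for miR-376a, -3.47 for miR-376b, -3.03 for miR-376b* and -4.04 for miR-376c. Without the 5 dimmest arrays, 3 of them of day 1 and 2 of day 4, the values were -5.55, -3.65, -3.25 and -4.05 in the same order. The fold moved by over 1.5 times for miR-376a in both settings and for miR-376b* without the dim arrays. The cause of the spread at day 1 was not tested.

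**Figure D4:**
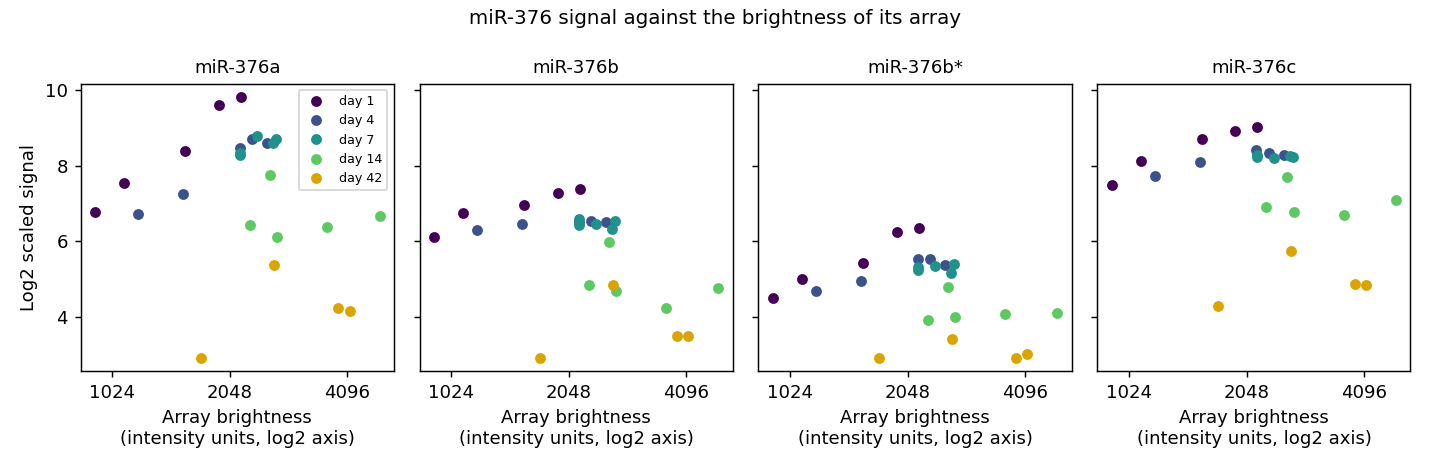
Log2 scaled signal of each miR-376 name against the brightness of its array (intensity units, log2 axis), 1 point per array, coloured by age. At day 1 the points rise with brightness for 4 of 4 names, while every array of day 14 lies below every array of day 7 for 4 of 4 names.

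Some single arrays stood at the same side for several names. Replicate 5 of day 14 was the highest of its age for 4 of 4 names, replicate 1 of day 42 the highest of its age and replicate 4 of day 42, the dimmest of that age, the lowest. Leaving out any 1 array kept 4 of 4 names called in each comparison in which they were called. Replicate 2 of day 1 held a summed striated muscle marker signal of 39067, where the other arrays of day 1 held 381 to 2319. Without it the differences of day 42 from day 1 were -3.96 for miR-376a, -3.13 for miR-376b, -2.27 for miR-376b* and -3.41 for miR-376c.

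With the slide as a block the differences of day 42 from day 1 were -4.47 for miR-376a, -3.31 for miR-376b, -2.54 for miR-376b* and -3.62 for miR-376c. Within a slide the arms are small: slides 2 and 3 held 1 array of day 42 each, on slide 3 the replicate 4 that detected none of the 4 names, and slide 1 held 1 array of day 1, its replicate 2. The differences within a slide are therefore values with no test. Those of slide 3, of miR-376b on slide 2 and of miR-376b* on every slide rest on day 42 signals that were not detected. Within slide 1, slide 2 and slide 3 the differences were -4.80, -3.43 and -5.78 for miR-376a and -3.11, -3.06 and -4.16 for miR-376b. They were -3.10, -1.94 and -2.78 for miR-376b* and -3.63, -3.27 and -4.29 for miR-376c.

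Scaling moved the level of all miRNAs as well as of these names. The median difference of all tested miRNAs at day 42 against day 1 was -0.35 here and 0.64 with no scaling, where higher miRNAs made up 71.4% of the calls in place of 30.7%. Relative to that median, miR-376a differed by -3.91 here and by -3.78 with no scaling, miR-376b by -2.87 and -2.74, miR-376b* by -2.10 and -2.04, and miR-376c by -3.18 and -3.16. A scaling factor moves a name and the median alike. These pairs are therefore near each other by construction, apart from the floor, and are no check on the scaling. With a normexp background correction the median was -1.18 and the same relative differences were -1.19, -0.68, -0.49 and -0.85. With that correction 4 of 4 names were still called at day 42 against day 1, but 0 of 4 at day 14 against day 7 and 0 of 4 at day 42 against day 14.

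Of the marker lists of lung and blood cells, 3 were called at day 42 against day 1 and 3 were not. The fibroblast list (miR-199a-3p, miR-199a-5p and miR-214) was called lower for 3 of 3 names, where 42.9% of all tested miRNAs were, its summed signal going from between 16038 and 21823 to between 8431 and 10406. Both endothelial names (the miR-126 arms) and 3 of 3 leukocyte names were called higher, where 18.9% of all tested were. Of the epithelial, smooth muscle and red blood cell lists, 0 of 3, 0 of 2 and 0 of 3 names were called in either direction. Their part in the miR-376 falls was not tested.

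The miRNAs whose log2 signals ran most like each name over the 24 arrays are given as a description, since the arrays share age, brightness and scaling. For miR-376a these were miR-18a (Pearson r 0.978), miR-136* (0.977) and miR-136 (0.976), of which miR-18a, from the miR-17-92 cluster, lies outside the Dlk1-Dio3 region. For miR-376b they were miR-300 (0.987), miR-495 (0.983) and miR-410 (0.979), all of the region. For miR-376c they were miR-377 (0.996), miR-337-3p (0.994) and miR-300 (0.989), also of the region. For miR-376b* they were miR-136* (0.977), miR-322 (0.973), from a cluster on the X chromosome, and miR-300 (0.971). Between the 4 names themselves r ran from 0.936 to 0.974.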

How the data were processed

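Whole-lung RNA of 24 samples was hybridised to 1-colour Agilent miRNA arrays. The authors read the arrays with Agilent Feature Extraction 10.7.1.1, per the file headers and the submitters' processing notes. The deposited intensity per spot is background-subtracted, with no adjustment between arrays. The deposited table of log2 values, whose making is not given in the sources used here, served as an alternative.

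Spots of a probe were averaged without outliers, the probes of a miRNA were summed, and arrays were scaled, floored at 7.46 and put on the log2 scale. A miRNA entered the test if some age had it detected on each of its arrays, which 322 did. limma 3.58.1 (R 4.3.3) was fitted over all arrays, with 19 residual degrees of freedom, two-sided, at a Benjamini-Hochberg adjusted p under 0.05 within each comparison. The script was tested on simulated data. Each limma p-value sets a difference between ages against the spread between samples of the same age, pooled over the 5 ages. That spread was unequal: for miR-376c the SD was 0.03 at day 7 and 0.64 at day 1. The normexp alternative (offset 50) used the median spot signal, since the files hold no mean signal.

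The members and lists were chosen with earlier results of these data known. All 4 names are given in every comparison, the 3 most correlated miRNAs for each name, and the nearest hairpin neighbours. The number of arrays limits the precision. Replicate numbers were not used to pair the arrays. After removal of the age means, the 46 same-numbered pairs of different ages had a median correlation of -0.02, and 18 correlated above 0.1. Differently numbered pairs had a median of -0.01. Of the arrays, 2 correlated best with an array of their own number.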

Additional observations from a re-analysis of the deposited data

Results flagged for a closer look

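Among the 20 combinations of name and age, 1 had an array whose gap to the nearest other, divided by the range of its group, passed the 95% critical value of Dixon's test for a group of that size. For miR-376b* at day 14, replicate 5 stood at a log2 signal of 4.77 (27.4 scaled units), while the other 4 arrays lay between 3.91 and 4.10. Its gap to the nearest array was 0.78 of the whole range. The same measure was 0.79 for miR-376b* at day 42, where the group has 4 arrays and the critical value is higher, and was not passed. By the test's construction, chance sets apart about 1 in 20 such groups. The same array was also the highest of its age for miR-376a, miR-376b and miR-376c. Without it the fall of miR-376b* from day 7 to day 14 was -1.27 on the log2 scale (limma, adjusted p = 0.00089) and that from day 14 to day 42 was -0.97 (limma, adjusted p = 0.016).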

How the results depend on the processing

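With no scaling, 1 of the 4 miR-376 names was called at day 14 against day 7, 2 at day 42 against day 14 and 0 at day 14 against day 1. With the normexp background correction these counts were 0, 0 and 0, the F-test called 2, and miR-376b* turned to 0.24 on the log2 scale at day 14 against day 7 (limma, adjusted p = 0.76). Without the 5 dimmest arrays 1 name, miR-376b*, was called at day 7 against day 1. Within single slides, day 42 against day 1 moved to -5.78 for miR-376a, -4.16 for miR-376b and -4.29 for miR-376c on slide 3, and for miR-376b* to -3.10 on slide 1 and -1.94 on slide 2. Slides 2 and 3 hold 1 array of day 42 each, the one on slide 3 detected none of these names, and miR-376b* was detected on no array of day 42. The causes were not tested.

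At day 42 against day 1 all 4 names stayed called under every alternative that gave a test, but the sizes of the falls moved. Over the alternatives, with the values within slides among them, the log2 differences ran from -5.78 to -2.38 for miR-376a and from -4.16 to -1.86 for miR-376b. They ran from -3.25 to -1.38 for miR-376b* and from -4.29 to -2.03 for miR-376c. Leaving out each array in turn gave -4.67 to -3.84 for miR-376a, -3.61 to -2.96 for miR-376b, -2.71 to -2.24 for miR-376b* and -3.80 to -3.31 for miR-376c. It left the counts of called names at 4 or 0 as they were, and 0 to 2 of the 6 tests of unequal change passed, the 2 both on miR-376b with miR-376c. Under quantile normalization miR-376b* was not called at day 14 against day 7 (-0.70, limma, adjusted p = 0.0759), at day 42 against day 14 (-0.78, limma, adjusted p = 0.0688) or at day 14 against day 1 (-0.60, limma, adjusted p = 0.0812). With the deposited log2 table it was not called at day 14 against day 1 (-0.65, limma, adjusted p = 0.0588). The other region names called lower at day 7 against day 1, 21 in the main setting, were 1 with no scaling, 0 with normexp, 9 with the brightness covariate and 13 with a floor of 1. With the replicate block, day 42 against day 1 was -4.21 for miR-376a, -3.15 for miR-376b, -2.42 for miR-376b* and -3.50 for miR-376c, and no call changed. The names were not detected on all arrays, so restricting the test to miRNAs that were gave no value. Signal over background limits every statement on day 42, where 8 of the 16 values came from arrays that did not detect the name.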
